A study of Mus musculus with 16 samples.

Results

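Naive CD8 T cells that had been stimulated for 4 h were compared with memory-phenotype CD8 T cells that had been left at rest for the same time. The 8 arrays concerned, 4 titled Nstim and 4 titled Mrest, were chosen by the start of their titles out of 16 arrays in all. The study sorted T cells bearing CD8 and Thy1.2 from 7-week-old female C57BL/6N mice into a CD44-low fraction (naive) and a CD44-high fraction (memory phenotype). Each fraction then spent 4 h in culture medium, without or with PMA at 10 ng/mL plus ionomycin at 500 ng/mL. Memory phenotype here rests on CD44 alone, no immunisation is named in the labels, and how many mice went into a sample is not stated in them. The naive resting group, of 4 further arrays, served to define which genes distinguish memory-phenotype from naive cells before stimulation. In bulk RNA of this kind, fewer cells of a type and less RNA per cell cannot be told apart.

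A naive T cell has not met its antigen and has to be activated before it makes effector molecules. Memory CD8 T cells already carry a program of transcription factors, cytotoxic granule proteins, chemokine receptors and receptors shared with natural killer (NK) cells, and CD44-high cells with these traits are also found in mice that were never immunised. PMA activates protein kinase C and ionomycin lets calcium into the cell, which together mimic signals downstream of the T cell receptor without antigen or costimulation. The comparison asks which features of the resting memory program naive cells reach within the stimulation period, and which they do not.

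One-colour oligonucleotide arrays covering the mouse genome were used, with 1 sample on each. Levels below are log2 signal relative to the 75th percentile of the array, which lay between 504.3 and 678.0 intensity units, so that 0 is that percentile and a difference of 1 is a 2-fold change. Spots well above background made up 63.9% to 66.5% of the memory resting arrays and 60.8% to 63.4% of the naive stimulated arrays. Replicates 2 and 3 lay closest to each other in every group. In naive resting cells they differed by less than replicate spots on one array (a spread of 0.075 against 0.076, on the log2 scale), so they were counted as 1 sample and naive resting values have n = 3. In naive stimulated cells the same pair had a spread of 0.093 against 0.080 for spots and was kept as 2 samples. The remaining 20 pairs, in which at least one array was replicate 1 or 4, had spreads of 0.185 to 0.425. Each group was on a slide of its own with a scan of its own, so that slide and group cannot be told apart. The sort marker Cd44 lay between 3.36 and 3.59 on the memory resting arrays and between -0.75 and -0.45 on the naive resting arrays. Cd8b1, a chain of the CD8 co-receptor, was at 7.31 ± 0.06 (SD, n = 4) in memory resting and 7.08 ± 0.22 (SD, n = 4) in naive stimulated cells, and Cd4 was at -4.18 ± 0.10 and -4.36 ± 0.08. Cd8a, the other chain, was not stable. It was 3.4-fold lower in naive stimulated than memory resting cells (-1.79, SE 0.21, adjusted p = 3.33e-06), with probes from -2.67 to -1.79.

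Stimulated naive cells stood apart from resting memory cells on most of the genes measured. They were higher for cytokines, chemokines, immediate early transcription factors and the ribosome assembly machinery. They were lower for NK-type receptors, S100 proteins, trafficking receptors, interferon-stimulated genes and genes of mitosis. Of 18402 genes tested, 5653 (30.7%) were higher in naive stimulated cells and 6101 (33.2%) were lower, at an adjusted p under 0.05. A difference of at least 2-fold was found for 3350 higher and 3905 lower genes, and one of at least 16-fold for 125 and 238. The 4 arrays of one group did not overlap the 4 of the other for 11231 genes (61%), beside 30.7% and 33.2% called in each direction. With replicates 2 and 3 averaged in every group, 5017 genes were higher and 5565 lower.

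Il2, the T cell growth factor interleukin-2, had the largest excess in stimulated naive cells on the brightest probe of each gene. Il2 was at 3.69, 3.52, 3.50 and 3.02 on the naive stimulated arrays and at -5.81, -6.01, -5.97 and -5.53 on the memory resting arrays. The groups lay far apart, with a difference of 9.26 (SE 0.21, adjusted p = 4.11e-13). The other tested probe of Il2 gave 6.27, which is below every other gene named in this paragraph. Il2 was well above background on 2 of 4 memory resting arrays, so the size of its difference is uncertain. Sema7a, a membrane semaphorin, followed at 8.19, then Il3, a haematopoietic cytokine, at 7.90, Spry1, an inhibitor of receptor tyrosine kinase signalling, at 7.77 and Fosl1, a subunit of the AP-1 transcription factor, at 7.11. Il3 was not well above background on any memory resting array, so that its excess is at least 62.8-fold. Ccl4 and Ccl3, chemokines that attract effector T cells and monocytes, exceeded memory resting cells by 6.81 and 6.72. Irf4, a transcription factor induced by antigen receptor signals, exceeded them by 6.79.

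At the other end stood Kcnj8, a subunit of ATP-sensitive potassium channels. It was at 2.25, 2.73, 2.67 and 2.84 in memory resting cells and between -7.98 and -6.12 in naive stimulated cells, where no array was well above background. The deficit was at least 298-fold on this probe, and the other tested probe of Kcnj8 gave a difference of -5.55 (log2). Cd163l1, a scavenger receptor family member known from gamma-delta T cells, was lower by 9.04 on the log2 scale (SE 0.33), and Il18r1, the ligand-binding chain of the interleukin-18 receptor, by 7.89 (SE 0.24). S1pr1, the sphingosine phosphate receptor by which lymphocytes leave lymph nodes, was at 3.81 ± 0.15 (SD, n = 4) in memory resting cells and -2.90 ± 0.65 (SD, n = 4) in naive stimulated cells. Klra7, an inhibitory NK receptor of the Ly49 family, Gzmk, a granule protease, and Klra4 were further members of this end.

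To place the stimulated naive cells on the memory program, genes were taken that were higher in memory resting than in naive resting cells by at least 1 on the log2 scale at an adjusted p under 0.05. There were 1145 such memory-high genes, 6.22% of those tested. Each was sorted by the calls of the same fit. Stimulated naive cells were past the resting memory level for 195 genes (17%), and not called different from it for 379 (33.1%). They were part way, above naive resting but below memory resting cells, for 84 (7.3%). They were below memory resting cells and not called different from naive resting cells, here termed not moved, for 262 (22.9%). For 225 genes (19.7%) they were below both, having moved away from the memory level. The comparisons share arrays, memory resting cells entering both the choice of the genes and their placing, so these counts describe the genes and carry no test of their own.

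**Figure D1:**
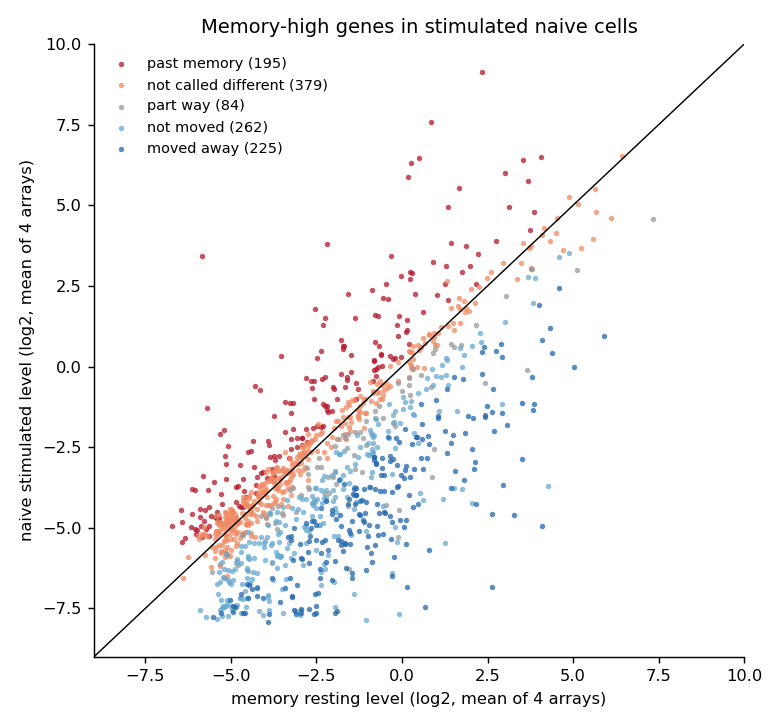
Mean level in memory resting cells (x axis, log2 relative to the array's 75th percentile, 4 arrays) against mean level in naive stimulated cells (y axis, same scale, 4 arrays) for the 1145 genes higher in memory than naive cells at rest. Colours give the 5 classes, and the line marks equal levels: the 195 past genes lie above it, the 379 not called genes around it, and the 225 genes that moved away lie farthest below it.

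Many of the genes not called different were dim. Their median level was -3.59 in memory resting, -3.55 in naive stimulated and -5.11 in naive resting cells, and 35 of the 379 were sensory receptor genes, a class looked at after its values were seen. Sensory receptor genes made up 415 of the 18402 genes tested and 48 of the 1145 memory-high genes. Among the 377 memory-high genes with a mean over all arrays of at least -2, the shares were 24.1% past (91 genes), 27.6% not called different (104), 8.8% part way (33), 16.4% not moved (62) and 23.1% moved away (87). Against this, 34.6% of all genes tested were higher and 31% lower in naive stimulated than in naive resting cells.

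**Figure D2:**
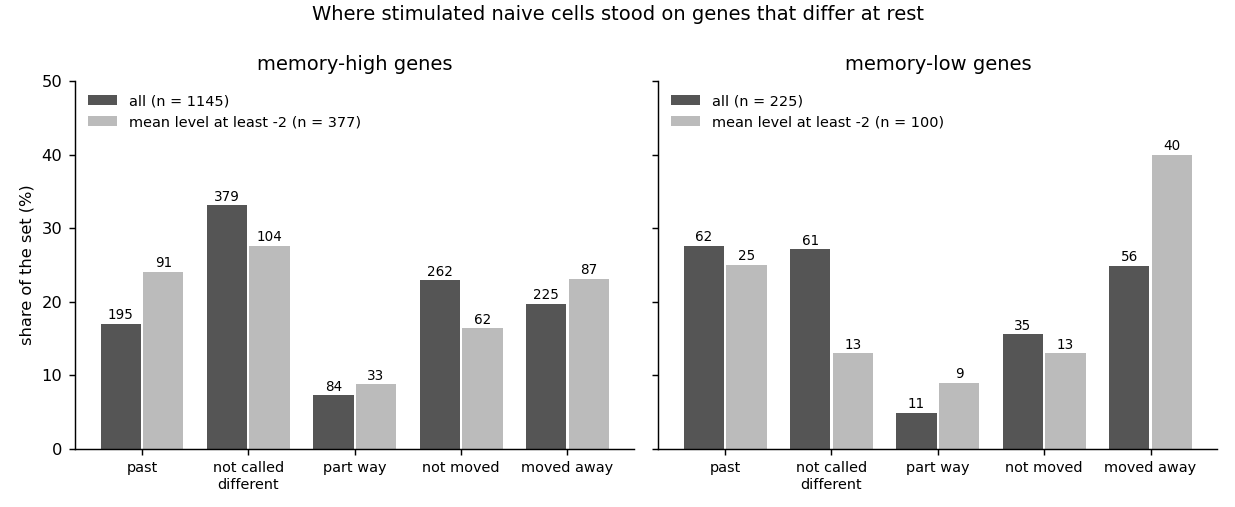
Share (%, y axis) of the genes higher (left) or lower (right) in memory than naive cells at rest that fell in each class of naive stimulated cells. Dark bars hold all 1145 and 225 genes, light bars the 377 and 100 whose mean level was -2 or higher, and numbers above bars are gene counts: without dim genes the not called share fell from 33.1% to 27.6% on the left and from 27.1% to 13% on the right.

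The genes on which stimulated naive cells passed the memory level included transcription factors, cytokines and inhibitory receptors. Tbx21 encodes T-bet, a T-box factor that drives cytotoxic and interferon-gamma programs. Its probe lies at chr11:97207142-97207201 (mm7). It was at 3.84, 3.65, 3.58 and 3.68 in memory resting cells and at 5.41, 5.73, 5.69 and 6.21 in naive stimulated cells. Every stimulated array lay above every memory array, by 2.07 on average (SE 0.19, adjusted p = 2.16e-07), from a naive resting level of -0.25. Zbtb32, a zinc-finger repressor of lymphocyte responses, was at -2.14, -2.90, -2.81 and -2.34 in memory resting and at 2.18, 1.62, 1.54 and 1.82 in naive stimulated cells. That is a 20.3-fold excess.

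Interferon-gamma, the effector cytokine of these cells, behaved likewise. Ifng was at 0.26, 0.57, 0.65 and 0.56 in memory resting cells and at 6.56, 6.60, 6.62 and 6.12 in naive stimulated cells, 62.4-fold more. Xcl1, a chemokine that attracts cross-presenting dendritic cells, rose from -2.62 in naive resting cells to 6.31 ± 0.28 (SD, n = 4), against 0.25 ± 0.16 (SD, n = 4) in memory resting cells. Both genes were higher on all 4 stimulated arrays than on any memory array. Lag3 and Havcr2, inhibitory receptors of activated and exhausted T cells, exceeded memory resting cells by 2.17 (SE 0.39) and 1.0 (SE 0.29). The other tested probe of Havcr2 gave 0.65 (adjusted p = 0.109), which is not a call. Il15ra, the chain that presents interleukin-15, exceeded them by 3.23 (SE 0.25), and Crtam, an adhesion molecule of cytotoxic cells, by 3.85 (SE 0.14). C2cd4b and Smg8, the latter a regulator of nonsense-mediated RNA decay, passed memory cells by the smaller margins of 0.98 and 0.57. The C2cd4b call was lost without memory resting replicate 2 (0.90), without memory resting replicate 3 (0.86) or without naive stimulated replicate 1 (0.62), and with the percentile taken over probes above background on all arrays (0.76). That of Smg8 was lost with normexp background correction (0.50, adjusted p = 0.286).

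**Figure D3:**
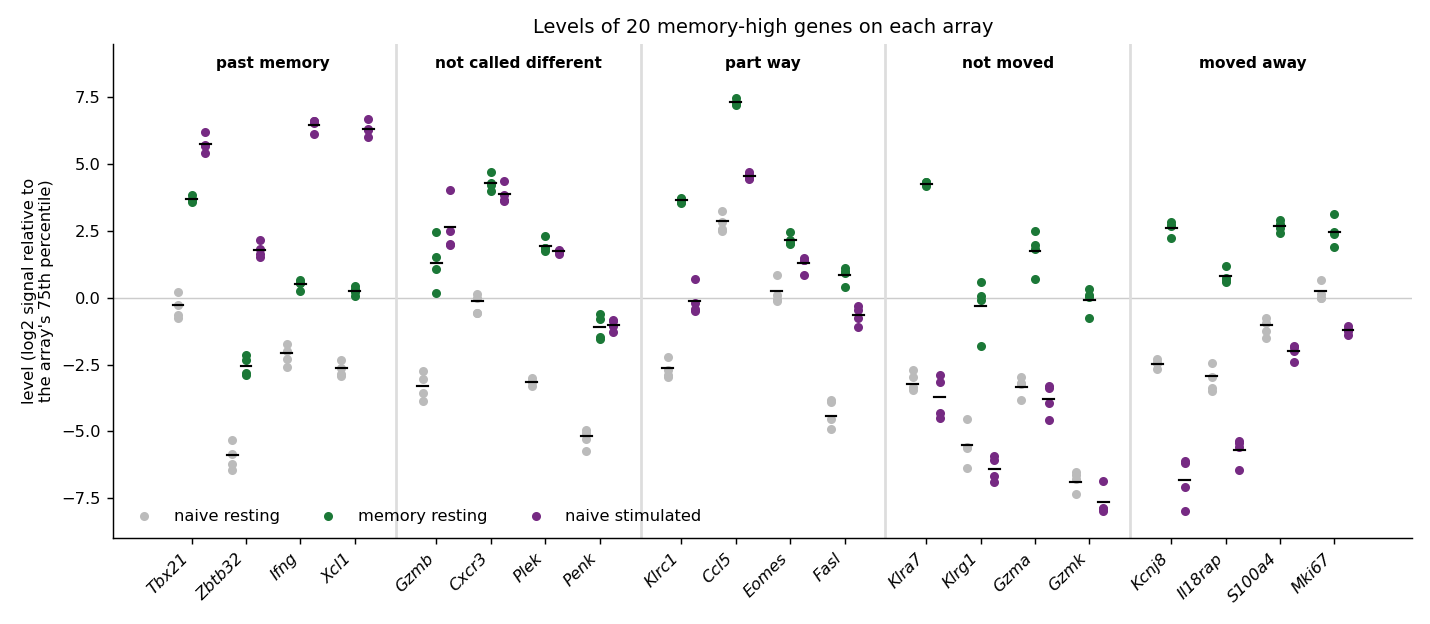
Level (log2 relative to the array's 75th percentile, y axis) of memory-high genes from each of the 5 classes in naive resting (grey), memory resting (green) and naive stimulated (purple) cells. Points are single arrays, 4 per group, and bars are group means, with naive resting replicates 2 and 3 counted as 1: Tbx21 lay at 3.69 in memory resting and 5.76 in naive stimulated cells, Mki67 at 2.47 and -1.21.

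For a further set of genes the stimulated naive level was not called different from the memory level. Gzmb encodes granzyme B, the protease that triggers death of target cells. It was at 2.48, 1.09, 1.54 and 0.16 in memory resting cells and at 4.04, 2.02, 1.99 and 2.51 in naive stimulated cells. The groups overlapped and each varied by nearly 1 log2 unit (SD 0.963 and 0.965), so that the difference of 1.32 (SE 0.61, adjusted p = 0.0714) was not a call. It became a call of higher without memory resting replicate 1 (1.71, adjusted p = 0.029) and with normexp after replacing high local backgrounds (1.27, adjusted p = 0.0438). A fit that allowed for replicate number also called Gzmb higher (adjusted p = 0.00506). In naive resting cells Gzmb was at -3.31 ± 0.57 (SD, n = 3).

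Cxcr3, a chemokine receptor that leads T cells to inflamed tissue, was at 4.00, 4.31, 4.23 and 4.71 in memory resting cells and at 3.86, 3.65, 3.63 and 4.37 in naive stimulated cells, with overlap. The naive resting level was -0.13. The difference of -0.43 (SE 0.23, adjusted p = 0.11) became a call of lower without naive stimulated replicate 4 (-0.60), with quantile scaling (-0.96), with the percentile over probes above background on all arrays (-0.65) and in the authors' deposited table (-0.98). Allowing for replicate number in the fit also made Cxcr3 a call of lower (adjusted p = 0.0363). Plek, a protein kinase C substrate, and the sort gene Cd44 were likewise called lower under quantile scaling, at -0.43 and -0.69, and in the authors' deposited table, at -0.42 and -0.64. Plek was also called with the percentile over probes above background on all arrays (-0.44), and Cd44 without naive stimulated replicate 1 (-0.47). Penk, the precursor of enkephalin peptides, and Pdgfb, a platelet-derived growth factor chain, differed from memory resting cells by 0.08 (SE 0.22) and 0.24 (SE 0.23). Il12rb1, a chain of the interleukin-12 receptor, Nkg7, a membrane protein of cytotoxic granules, and Prdm1, which encodes the effector transcription factor Blimp-1, differed by -0.22 (SE 0.24), -0.04 (SE 0.26) and -0.42 (SE 0.30). A difference that misses the threshold does not show equal levels: the intervals implied by these errors reach about 1 log2 unit for Prdm1 and more for Gzmb.

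PMA and ionomycin act on genes largely through AP-1, NF-kappaB and NFAT, and T-bet binds the T-box motif, so the RefSeq promoter windows (250 bases before the start, build GRCm38.p6) were searched on both strands for short motifs. A window was found by symbol for 11358 of the 18402 genes tested. The AP-1 motif TGANTCA was present in 5.9% of these, in 13 of 97 past genes (13.4%) and in 18 of 205 not called genes (8.8%). Among all genes higher or lower in naive stimulated than memory resting cells its shares were 5.5% and 5.7%, no more than over all windows. In the part way, not moved and moved away genes the shares were 4.3%, 8.3% and 5.8%. The NF-kappaB motif was in 5.4% of all windows and 9.3% of past genes, the CRE motif TGACGTCA in 2.8% and 2.1%, and the T-box motif TCACACC in 3.7% and 2.1%, with 6.0% among not moved genes. Each window printed holds 1 of the 4 motifs. The windows of Havcr2 (past) and Gzmb (not called) are examples of named memory-high genes that have a single window with an AP-1 match. They need not be all such genes, and AP-1 matches also occur in not moved and moved away genes, as the shares show. The window of Gzmk (not moved), picked after its values were seen, is printed beside them for contrast. Each is written 5′ to 3′ on the gene's strand, ends just before the transcript start, and has the matched motif in capitals.
Havcr2, chr11:46454681-46454930, plus strand, AP-1 motif starting 200 bases before the start: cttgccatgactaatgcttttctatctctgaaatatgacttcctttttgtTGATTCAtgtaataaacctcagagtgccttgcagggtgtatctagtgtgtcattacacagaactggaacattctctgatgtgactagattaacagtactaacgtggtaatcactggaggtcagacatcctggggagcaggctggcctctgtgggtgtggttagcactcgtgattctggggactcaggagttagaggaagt
Gzmb, chr14:56262335-56262584, minus strand, AP-1 motif starting 58 bases before the start: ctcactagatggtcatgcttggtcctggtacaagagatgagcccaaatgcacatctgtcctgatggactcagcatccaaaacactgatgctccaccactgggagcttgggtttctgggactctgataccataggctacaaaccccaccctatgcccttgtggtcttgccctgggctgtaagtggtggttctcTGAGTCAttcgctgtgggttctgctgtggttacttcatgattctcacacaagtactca
Gzmk, chr13:113180966-113181215, minus strand, T-box motif on the opposite strand, starting 75 bases before the start: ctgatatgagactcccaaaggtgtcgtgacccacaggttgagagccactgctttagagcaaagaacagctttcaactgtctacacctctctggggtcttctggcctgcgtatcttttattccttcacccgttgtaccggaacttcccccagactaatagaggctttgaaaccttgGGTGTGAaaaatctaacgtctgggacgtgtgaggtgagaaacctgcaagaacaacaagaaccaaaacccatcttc
A match describes the letters only, and binding was not measured.

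Several NK-type receptors and memory chemokines were reached part way. Klrc1 encodes NKG2A, an inhibitory receptor for a non-classical class I molecule. It was at 3.60, 3.56, 3.69 and 3.72 in memory resting cells and at -0.49, -0.41, -0.21 and 0.71 in naive stimulated cells, above the naive resting level of -2.65 and 13.4-fold below memory. Ccl5, a chemokine that memory CD8 cells are known to keep as a ready transcript, was at 7.34, 7.23, 7.28 and 7.46 against 4.72, 4.48, 4.45 and 4.64, a 6.8-fold deficit. For neither gene did the groups overlap.

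Fasl, the death ligand of cytotoxic cells, rose by 3.79 over naive resting cells and was 1.5 (SE 0.23) below memory resting cells. Eomes, a T-box factor of memory cells related to T-bet, rose by 1.03 and stayed 0.88 (SE 0.22, adjusted p = 0.0029) below them. Its arrays read 2.05, 2.16, 2.00 and 2.47 in memory resting cells against 0.87, 1.41, 1.47 and 1.42 in naive stimulated cells. So at 4 h Tbx21 was above and Eomes below the resting memory level, each without overlap. Runx2, Pdcd1 (the inhibitory receptor PD-1) and Ly6c1, a surface protein of memory CD8 cells, were also part way, at -0.73, -0.94 and -2.12 relative to memory resting cells. Itgb1, the beta-1 integrin chain, was -0.40 from them (adjusted p = 0.0212) and its call was lost without memory resting replicate 3 (-0.36) or without naive stimulated replicate 2 (-0.38) or 4 (-0.31), with replicates 2 and 3 averaged in every group (-0.36) and with normexp (-0.43, adjusted p = 0.056). Its other tested probe gave 0.09.

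The NK-type receptors formed the largest block that stimulated naive cells did not reach. Of 31 tested genes of this list, 28 were lower and 3 higher in naive stimulated than memory resting cells, beside 33.2% and 30.7% of all genes, and the median difference was -4.05 against -0.03 over all genes. Many of these genes were tested through the memory group alone, where they are high: 13 were lower when all 8 arrays had to be above background. Of these, 26 were memory-high genes (6.22% of all genes were): 14 did not move, 7 were part way, 4 moved away and 1, Slamf7, an activating receptor of NK and cytotoxic cells, was passed by 3.74. Klra7 was at 4.33, 4.19, 4.33 and 4.26 in memory resting cells and at -4.33, -3.16, -2.89 and -4.50 in naive stimulated cells. Klrg1, an inhibitory receptor of terminally differentiated effector cells, was at 0.58, -0.07, 0.08 and -1.82 against -5.91, -6.69, -6.90 and -6.08, at least 39.1-fold lower. Klrk1, the activating receptor NKG2D, was at least 18.3-fold lower. The genes higher in naive stimulated cells were Slamf7, Cd226, an activating adhesion receptor, at 0.69, and Cd160, a receptor for HVEM, at 5.20. The Ly49 genes (Klra symbols) are near-identical copies, and their probes may read one another.

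Granzymes and other granule genes went in both directions. Of 22 tested, 8 (36.4%) were higher and 9 (40.9%) lower in naive stimulated cells, near the 30.7% and 33.2% of all genes. Gzmk, probed at chr13:110327790-110327849 (mm7), was at 0.34, 0.11, 0.02 and -0.77 in memory resting cells and between -7.98 and -6.87 in naive stimulated cells, at least 45.9-fold lower. No naive array, resting or stimulated, was well above background. Gzma, granzyme A, was at 2.51, 1.97, 1.84 and 0.70 against -3.31, -3.38, -3.95 and -4.56, 47.0-fold lower, and it differed from naive resting cells by -0.46 (adjusted p = 0.382). Gzmm was lower by 3.63 on the log2 scale and also below naive resting cells. Gzmc, by contrast, was higher by 2.98, and so were Serpinb9 and Serpinb6b, inhibitors that protect cells from granule proteases, by 1.28 and 1.17. Prf1, the pore-forming protein, was lower by 1.30 (adjusted p = 0.0282) but lost its call without memory resting replicate 1 (-1.04) or 3 (-1.28), without naive stimulated replicate 2 (-1.06), with replicates 2 and 3 averaged in every group (-1.25), and with normexp (-1.10).

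Chemokine and sphingosine phosphate receptors were mostly below the memory level. Of 21 tested, 14 (66.7%) were lower and 4 (19.0%) higher, beside 33.2% and 30.7% of all genes, with a median of -1.41. With normexp 8 were lower and 1 higher. Ccr2, which brings cells to inflamed sites, was 5.28 below memory resting cells and 0.00 from naive resting cells (adjusted p = 0.997). Cxcr5, the receptor for the B cell follicle chemokine, was 4.08 below. Cx3cr1 and S1pr5, markers of effector memory cells, did not move either. Ccr9, a gut homing receptor that is higher in naive than memory cells at rest, had the largest excess of the list at 1.97. Among 20 integrin chains, 8 were lower and 3 higher. Without naive stimulated replicate 2 or memory resting replicate 3 the lower count was 5, and the higher count was 5 without naive resting replicate 1 and 1 without memory resting replicate 2 or naive stimulated replicate 4. Itgb7, which pairs with Itgae and Itga4, was lowest at -2.62, and Itgav was highest at 2.41. Of 19 genes for selectin ligands, 10 (52.6%) were lower and 4 (21.1%) higher, and with normexp 6 were lower. Gcnt1, the enzyme that starts core 2 O-glycans on selectin ligands, was lower by 3.84 (SE 0.39) and above background on 1 of 4 naive stimulated arrays, a call lost with normexp (-0.70), and Selplg, the P-selectin ligand itself, by 3.19, whereas Tpst1, a tyrosine sulfating enzyme, was higher by 2.86.

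Some memory-high genes fell in naive cells on stimulation and so ended farther from the memory level than they began. Il18rap, the second chain of the interleukin-18 receptor, was at 1.2, 0.67, 0.74 and 0.59 in memory resting cells and at -5.36, -5.58, -5.42 and -6.46 in naive stimulated cells, having fallen by 2.77 from naive resting cells. S100a4 and S100a6, calcium-binding proteins of motile cells, read 2.68 ± 0.20 and 2.13 ± 0.08 in memory resting cells against -2.01 ± 0.27 and -2.97 ± 0.24 in naive stimulated cells (SD, n = 4 each). In stimulated memory cells the 2 genes were at 2.75 and 2.17, close to the resting memory values. Of the 30 S100, annexin, galectin and cytoskeletal genes, 26 (86.7%) were lower in naive stimulated cells and 1 (3.3%) higher. Over all genes the shares were 33.2% and 30.7%, and the list's median was -1.52. Against naive resting cells 24 of the list fell and 2 rose (31% and 34.6% of all genes). Myo1f, a myosin of haematopoietic cells, was lowest at -6.61. Lmna, a nuclear lamin, was the higher one at 0.76 (adjusted p = 0.0292), a call that was lost without memory resting replicate 2 (0.60) or 3 (0.64), without naive stimulated replicate 2 (0.74), 3 (0.77) or 4 (0.57), and with replicates 2 and 3 averaged in every group (0.61). It was also lost with quantile scaling (0.50), with the percentile over probes above background on all arrays (0.54), with normexp (0.64) and in the authors' deposited table (0.47).

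Genes of cell division followed. Mki67, the Ki-67 proliferation antigen, was at 3.15, 2.40, 2.45 and 1.89 in memory resting cells and at -1.07, -1.16, -1.24 and -1.38 in naive stimulated cells, 12.9-fold lower. Of 45 mitosis and DNA replication genes 31 (68.9%) were lower and 5 (11.1%) higher, beside 33.2% and 30.7% of all genes. The lower ones included the mitotic genes Ccnb2, Aurkb and Cenpf, at -3.21, -3.75 and -3.55, and the 5 higher ones were Pcna, the replication clamp, at 1.63, with Ccne2, E2f1, Mcm3 and Mcm5, which act at the start of DNA replication. Of 22 genes of this list in the memory-high set, 12 moved away and 10 did not move. With normexp 17 genes of the list were lower and 3 higher.

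Interferon-stimulated genes were lower without exception among those called. Of 28 tested, 22 (78.6%) were lower in naive stimulated cells, beside 33.2% of all genes, with a median of -2.21. Of the 6 not called, Igtp, an interferon-inducible GTPase, came nearest to being higher at 0.59 (adjusted p = 0.0594), and it was called higher without naive stimulated replicate 2 (0.69) or 3 (0.69). Igtp was also called higher in a fit that allowed for replicate number (adjusted p = 0.0209). Without memory resting replicate 1 or naive stimulated replicate 1, 1 gene of the list was also called higher. Ifit3, an antiviral RNA-binding protein, was at 3.85 ± 0.87 in memory resting and -1.16 ± 0.18 in naive stimulated cells (SD, n = 4 each). Oasl2, of the same pathway, read 2.44, 1.02, 1.18 and 1.08 in memory resting cells, one array standing above the other three, and -3.70, -3.81, -3.95 and -3.67 in naive stimulated cells. The memory-high members Ifit3, Mx1, Oas1a, Oasl2 and Rtp4 all moved away.

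**Figure D4:**
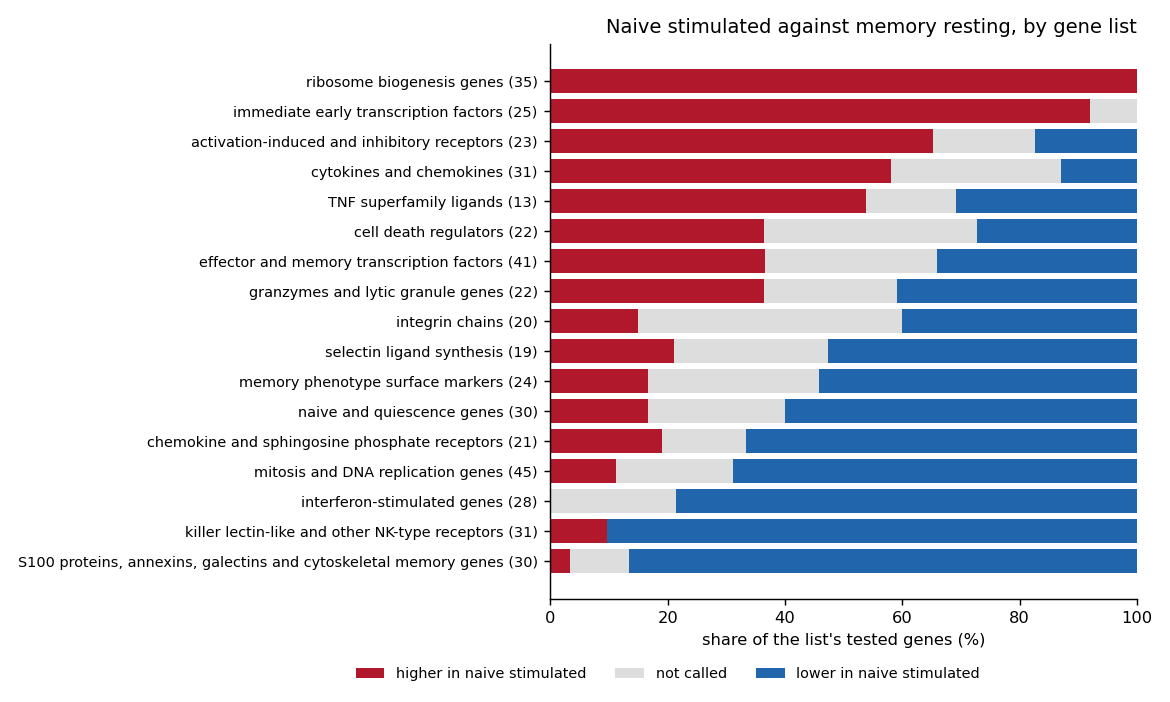
Share (%, x axis) of the tested genes of each list that were called higher (red), called lower (blue) or not called (grey) in naive stimulated against memory resting cells, with the number tested in brackets. Ribosome biogenesis is red throughout (35 of 35), NK-type receptors are almost all blue (28 of 31), and over all genes 30.7% were higher and 33.2% lower.

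Transcription factors of effector and memory cells had shares close to those of all genes. Of 41 tested, 15 (36.6%) were higher and 14 (34.1%) lower, beside 30.7% and 33.2%, with a median of -0.09. Of the 13 that were memory-high, 6 were passed (among them Tbx21, Zeb2, Irf8, Zbtb32 and Bhlhe40), 1 was not called different (Prdm1), 2 were part way (Eomes and Runx2) and 4 did not move (Hopx, Gata3, Batf3 and Zbtb7b). Zeb2, a repressor that works with T-bet in effector cells, exceeded memory resting cells by 3.73 (SE 0.20), and Irf8 by 3.59 (SE 0.20). Gata3, a factor needed for T cell maintenance, was 1.63 (SE 0.20) below and Hopx 1.77 (SE 0.11) below. The Zbtb7b call of lower was lost with normexp (-0.87). Tcf7 and Lef1, which maintain naive and central memory cells, were 2.86 and 2.63 below memory resting cells after stimulation. At rest neither reached a difference of 1 log2 unit between memory and naive cells. Tcf7 differed by 0.12 (adjusted p = 0.593), and Lef1 was called lower in memory cells (-0.84, adjusted p = 0.000561).

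**Figure D5:**
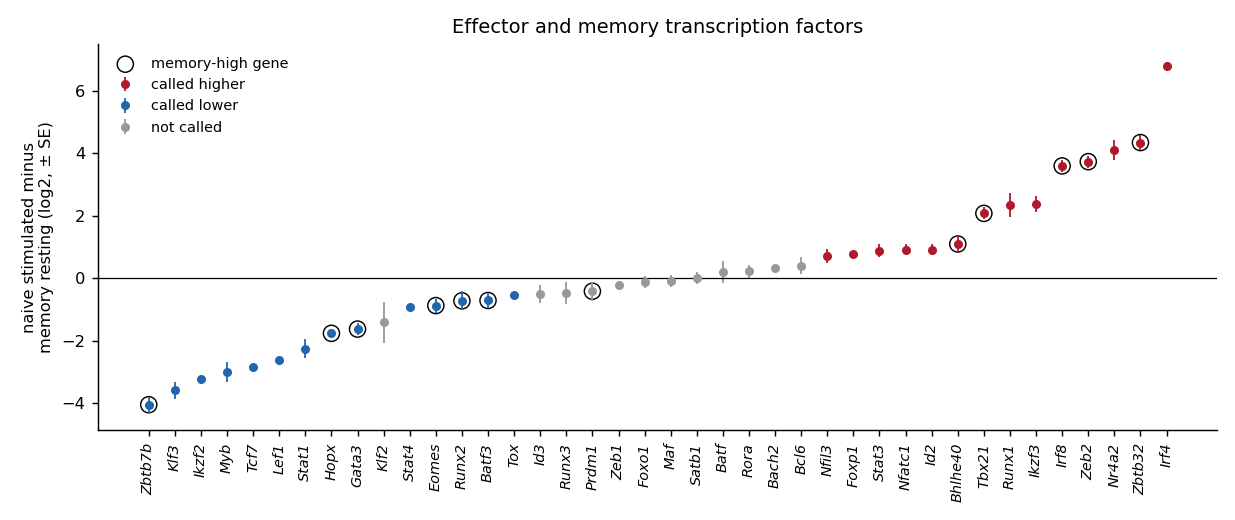
Difference (log2, naive stimulated minus memory resting, y axis) with its standard error for the effector and memory transcription factors reported here, ordered by size; red and blue mark calls, grey the rest, and rings the memory-high genes. Zbtb7b (-4.05) and Irf4 (6.79) stand at the ends, and the ringed genes lie on both sides of 0.

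Secreted and surface ligands were mainly higher. Of 31 cytokines and chemokines, 18 (58.1%) were higher and 4 (12.9%) lower, beside 30.7% and 33.2% of all genes, with a median of 1.32. Of 12 in the memory-high set, 8 were passed. Besides Ccl5, the lower ones were Ccl6, Ltb, a lymphotoxin chain, and Il16, at -3.88. Of 13 TNF superfamily ligands, 7 (53.8%) were higher and 4 (30.8%) lower, beside 30.7% and 33.2% of all genes. Tnfsf11 (RANKL) had the largest excess at 6.43, followed by Tnfsf14 (LIGHT) at 5.72. Of 23 activation-induced and inhibitory receptors, 15 (65.2%) were higher and 4 (17.4%) lower, beside the same shares of all genes. Slamf1, a self-binding costimulatory receptor, was at 4.94 ± 0.12 against -1.28 ± 0.16 (SD, n = 4 each), and Il2ra, the inducible interleukin-2 receptor chain, exceeded memory cells by 5.82. Ctla4, an inhibitory receptor, was 2.01 below them and also below naive resting cells.

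Immediate early transcription factors showed the breadth of the response. Of 25 tested, 23 (92.0%) were higher, beside 30.7% of all genes, with a median of 3.85. Myc, Egr2 and Nr4a1, all rapid targets of antigen receptor signals, exceeded memory resting cells by 6.04, 6.02 and 4.71. Relb differed by 0.04 (adjusted p = 0.801), and was called lower with quantile scaling (-0.52) and in the authors' deposited table (-0.53). All 35 ribosome biogenesis genes were higher, from 1.08 for Ubtf, a ribosomal RNA transcription factor, to 4.55 for Rrp1b, with a median of 2.84. The probes of Rrp1b ranged from 0.48 to 4.83.

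Surface markers of memory cells and genes of naive and quiescent cells were for the most part lower. Of 24 memory surface markers, 13 (54.2%) were lower and 4 (16.7%) higher, beside 33.2% and 30.7% of all genes, with a median of -1.65. Il10ra, the interleukin-10 receptor chain, was lower by 4.79, and Il2rb, the interleukin-15 and interleukin-2 receptor chain, differed by 0.49 (adjusted p = 0.0592), a difference that was called without naive stimulated replicate 1 (0.66) and in a fit of only the 8 arrays compared (adjusted p = 0.0365). Of 30 naive and quiescence genes, 18 were lower and 5 higher. Il7r, the receptor for the survival cytokine interleukin-7, was at 5.35, 5.94, 5.79 and 5.52 in memory resting cells and at -0.35, 0.08, -0.05 and 0.74 in naive stimulated cells, 46.7-fold lower. Ccr7, a lymph node homing receptor, was lower by 1.41, and at rest it differed between memory and naive cells by -0.33 (adjusted p = 0.402). Among 22 cell death regulators, 8 (36.4%) were higher and 6 (27.3%) lower, near the shares of all genes (30.7% and 33.2%). The lower count was 10 with quantile scaling and in the authors' deposited table, and 12 with the percentile over probes above background on all arrays. The survival gene Bcl2l1 was higher by 3.94 (probes from 1.41 to 3.94) and the pro-death gene Bbc3 (PUMA) lower by 3.66, while Bcl2 differed by 0.47 (SE 0.27, adjusted p = 0.139).

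Genes that were lower in memory than in naive cells at rest formed a smaller set of 225 (1.22% of genes). In this mirrored set, past means below the memory level. Stimulated naive cells were past for 62, not called different for 61, part way for 11, not moved for 35 (54 without naive resting replicate 1) and had moved away, to above naive resting cells, for 56. Of the 100 with a mean level of at least -2, 40 moved away. Fos, an AP-1 subunit, was among those, at -1.55, -2.01, -1.81 and -1.41 in memory resting cells and at 2.04, 2.47, 2.41 and 1.78 in naive stimulated cells. Plaur, the urokinase receptor, and Rgcc, a cell cycle regulator induced by complement, were higher by 4.65 and 4.18. Slc6a19, an amino acid transporter, and Ifngr2, the signalling chain of the interferon-gamma receptor, fell past the memory level. Slc6a19 was at least 17-fold below it, with no naive stimulated array above background, and Ifngr2 was lower by 1.72 on the log2 scale. Both calls were lost with normexp, at -1.35 (adjusted p = 0.108) and -1.17 (adjusted p = 0.0696). Itgae, the alpha chain of the integrin CD103, fell by 2.31 from naive resting cells and differed from memory resting cells by 0.29 (adjusted p = 0.152). Tcf7l2, a Wnt pathway factor, did not move and was 2.79 above memory cells, although its other tested probe gave 0.32 (adjusted p = 0.409).

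Markers of other cell types were looked at beside these genes, since a sorted fraction can hold other cells. Over all genes, 33.2% were lower and 30.7% higher in naive stimulated than memory resting cells. All 10 tested NK or NKT cell markers were lower in naive stimulated cells, with a summed level of 3.45 to 3.83 on the memory resting arrays, 1.21 to 1.75 on the naive stimulated arrays and 1.03 to 1.44 on the naive resting arrays. Of the 10, 9 were higher in memory resting than in naive resting cells. In memory resting cells Gzma and Eomes, of this list, were at 1.75 and 2.17. Ncr1, a receptor of NK cells, was at -5.72 there and above background on 1 of 4 arrays. It was the 1 member of the list not called higher in memory resting than naive resting cells (1.28, adjusted p = 0.182). The NK-type receptors described above overlap this list, and the part of such cells in their values was not tested. Of 13 monocyte, macrophage or neutrophil markers, 10 were lower, and 6 when all 8 arrays had to be above background. Without naive stimulated replicate 1, 1 was higher. Their summed level was 3.88 to 4.56 in memory resting, 0.91 to 1.79 in naive stimulated and 3.19 to 3.94 in naive resting cells. Lyz2 was at 2.67 and -0.69 and S100a9 at 3.0 and -0.31 in the groups compared, and their part in the lower S100 values was not tested.

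Of 9 dendritic cell and MHC class II markers, 5 were lower, at a summed level of 2.52 to 3.38 against 2.34 to 3.31. Cd74, the invariant chain, differed by 1.05 (adjusted p = 0.135) and was called higher without memory resting replicate 4 (1.47) or without naive resting replicate 4 (1.05). Of 5 B cell markers, 3 were lower, the largest difference being that of Cd79b at -4.26. Of 4 CD4 or regulatory T cell markers, Cd40lg was higher and Zbtb7b, which encodes the CD4 lineage factor ThPOK, lower, both calls lost with normexp (1.12 and -0.87). Without memory resting replicate 4 or naive stimulated replicate 1, 2 of them were higher. Of 4 gamma-delta T cell markers, 2 were higher and 1 lower, and the summed level of 3.88 to 4.32 against -3.61 to -2.41 was carried by Cd163l1. Without naive stimulated replicate 2, 1 was higher and 2 lower, and without naive stimulated replicate 3, 1 was higher. Of 3 erythrocyte or platelet markers, 1 was lower. Of 12 T cell markers, 5 were lower and 2 higher, at summed levels of 8.76 to 8.96 against 8.63 to 9.07, and 9 were lower with quantile scaling and in the authors' deposited table. Cd3g was lowest at -1.99 and Zap70, the T cell receptor kinase, highest at 2.61, and Thy1 differed by 0.03 (adjusted p = 0.914), turning to a call of lower with quantile scaling (-0.58) and in the authors' deposited table (-0.63).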

How the data were processed

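The authors scanned each array in 1 colour and extracted it with Agilent Feature Extraction 9.5.3.1, per the file headers. The deposited intensity used (processed Cy3 signal) is background subtracted within each array. Mean spot and local background intensities, also deposited by the authors, served an alternative. The authors' deposited table of 33797 processed intensity values (lowest 30, median 149 in each column) correlates at 0.975 or more with the log2 processed signal. No source used here gives its scaling, and it served as an alternative only.

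Control spots and outlier spots (59 to 116 of 43379 per array) were left out, replicate spots averaged, and each array's 75th percentile subtracted after log2. Probes above background on at least 3 of 4 arrays of a group were tested, with 1 probe per gene, the brightest on average. Probes of 231 genes were called in opposite directions. Names came from the RefSeq gene list for 32737 of 41174 probes. Probe positions are those of the files (mm7). Exons and UTRs were not looked up. One mean per group was fitted to 15 samples (naive resting replicates 2 and 3 averaged) with limma 3.58.1 in R 4.3.3 (Python 3.11.15, numpy 2.4.6, pandas 2.3.3, matplotlib 3.10.9). Tests were two-sided, with Benjamini-Hochberg adjustment over 18402 genes and a threshold of 0.05. Group values are mean ± SD. Where a group had no array above background, folds are lower limits ("at least"), dividing the bright group's mean by that of the dim group, in which each array's value was raised to its weakest signal well above background where the probe lay lower. The method was tested on simulated data.

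The labels say that sort and culture were carried out on 4 separate occasions. The number of arrays limits the precision. The gene lists (17 of pathways and 8 of cell types), classes and tests were chosen with earlier results of these data known. Named genes are the 12 largest and 12 smallest differences, the 8 memory-high genes per class (4 for memory-low) with the largest resting difference (those not called only if above background on all 8 arrays compared), and the extremes and defining members of each list, passing over symbols that are accessions or clone names. Others named from lists illustrate their counts and were chosen after their values were seen. A few genes that the rule or the lists include are not reported here by name; counts over lists and classes include them.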

Additional observations from a re-analysis of the deposited data

Results flagged for a closer look

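In 18 of 212 groups of 4 arrays, taken over the named genes reported here, 1 array stood away from the other three by more than Dixon's critical value at the 95% level. Chance gives this in about 1 of 20 groups only if the 4 arrays are independent. Replicates 2 and 3 lay close together, with spreads of 0.126 in memory resting and 0.093 in naive stimulated cells. That rate therefore cannot be applied here, and whether 18 groups are more than chance gives was not tested. The arrays that stood away were memory resting replicate 1 (4 values) and 4 (4 values) and naive stimulated replicate 1 (4 values) and 4 (6 values).

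Among receptors and ligands, Ccl4 was at 2.01 on memory resting replicate 4, below the others at 2.41 to 2.46. Klrc2 was at -1.90 on memory resting replicate 4 (others -0.77 to -0.74), Cd160 at -0.33 on naive stimulated replicate 4 (others 0.26 to 0.35) and Plaur at 3.77 there (others 3.46 to 3.51). Itgb7 was at 1.10 on naive stimulated replicate 1, below 2.09 to 2.18. The cytokines Ifng, at 6.12 on naive stimulated replicate 4, and Il16, at 3.82 on memory resting replicate 1, were each the lowest of their group.

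Among transcription factors, Eomes was at 0.87 on naive stimulated replicate 1, against 1.41 to 1.47, and Tcf7l2 at -2.62 there, against -1.56 to -1.54. Ubtf stood apart in both groups, at 2.69 on memory resting replicate 1 and at 3.41 on naive stimulated replicate 4. The interferon-stimulated genes Oasl2, at 2.44 on memory resting replicate 1 (others 1.02 to 1.18), and Igtp, at 7.42 on naive stimulated replicate 4 (others 6.21 to 6.28), were the highest of their groups.

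The remaining values were Mfsd2a at 4.53 on naive stimulated replicate 1, Sft2d1 at -2.22 and Rasl11b at -3.33 on memory resting replicate 4, the neutrophil gene Ngp at -2.34 on memory resting replicate 1, and the class II gene H2-Aa at -3.79 on naive stimulated replicate 4.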

How the results depend on the processing

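Leaving out 1 array at a time gave 5317 to 5829 higher and 5732 to 6222 lower genes. Memory-high classes then held 171 to 254 past, 285 to 539 not called, 67 to 120 part way, 210 to 346 not moved and 196 to 231 moved away genes. Memory-low classes held 54 to 70, 50 to 77, 8 to 15, 30 to 54 and 47 to 69. With normexp background correction 3490 genes were higher and 2918 lower, the memory-high classes held 41, 63, 12, 85 and 29 genes and the memory-low ones 7, 9, 5, 5 and 13. Replacing high local backgrounds, a setting chosen after seeing the data, gave 73, 75, 33, 136 and 99, and for memory-low genes 35 past, 23 not called, 13 not moved and 32 moved away. The authors' deposited table gave 94 past, 95 not called and 163 not moved memory-high genes and 40 not called memory-low genes. Quantile scaling left 216 memory-high genes not called and gave 96 not called, 25 part way and 64 not moved memory-low genes. Requiring every one of the 8 arrays above background gave 138 not moved and 136 moved away memory-high genes, and 37 not called memory-low genes. A difference of at least 1 log2 unit gave 3350 higher and 3905 lower genes, 118 past and 27 part way memory-high genes, and 41 past, 98 not called and 3 part way memory-low genes. At a mean level of at least -2, 3603 genes were lower, memory-high classes held 91, 104, 33, 62 and 87 genes, and memory-low ones 25 past, 13 not called and 13 not moved. With replicates 2 and 3 averaged in every group, 7 memory-low genes were part way.

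Same-numbered naive stimulated and memory resting arrays correlated at 0.200, 0.020, 0.095 and 0.129, and differently numbered ones at -0.176 to 0.139. With naive resting arrays the same-numbered values were 0.286, 0.044, 0.149 and 0.202, and the others -0.174 to 0.146. All same-numbered values were positive but weak, and the numbers were not taken as pairs in the reported fit. With the replicate block 6053 genes were higher and 6395 lower, and 21 memory-low genes were part way. It called Gzmb (1.323, adjusted p = 0.00506) and Igtp (0.586, adjusted p = 0.0209) higher and Cxcr3 lower (-0.435, adjusted p = 0.0363), and 6 integrin chains higher. The slide block was not run, since each slide held 1 group. Relb turned to -0.516 and -0.530, and Thy1 to -0.577 and -0.632, with quantile scaling and in the authors' deposited table. Lrrc75b turned to 0.276 and Itga2b to 0.067 with normexp, and Trpm1 to -2.656 with its other probe. The cause was not tested. Among the values of named genes under all settings, 49 gained a call, 44 lost one and 7 reversed. The median of all genes, -0.034 as reported, was -0.252 with the percentile over probes above background on all arrays, 0.341 with normexp and 0.123 after replacing high local backgrounds. Dim genes are limited by signal over background.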

Other observations

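Sensory receptor genes, a class examined after its values were seen, were counted in the same way. Of 415 tested, 56 were higher and 49 lower in stimulated naive than resting memory cells, beside 30.7% and 33.2% of all genes, with a median difference of -0.01. Against naive resting cells their median differences were 0.4 in memory resting and 0.45 in naive stimulated cells. In memory resting cells 82 were called higher than in naive resting cells, and 48 were memory-high genes, beside 6.22% of all genes. Why naive resting cells read lower was not tested.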
